A study of Homo sapiens with 6 samples.

Results

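Interferon-stimulated genes are the genes that cells switch on when interferon, or the RNA and DNA sensors that lead to interferon, are engaged. A list of 51 such genes was followed in LX2 cells, an established line of human hepatic stellate cells, after depletion of METTL3, the enzyme that writes N6-methyladenosine on RNA. Of the 51 genes, 47 were found by name among the 12654 genes of the deposited table, and 45 had a mean score of 50 or more over the 6 libraries and were tested. IFI27, OASL, RSAD2 and CMPK2 were not analysed here. The lowest means among the tested genes were 90.7 for XAF1 and 100.8 for ISG20. Below the limit lay OAS1 with 47.5 and HERC5 with 39.8.

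Each of 3 groups had 2 libraries of total RNA. The shMETTL3-2 and shMETTL3-1 groups each carried their own METTL3 hairpin, delivered in the lentiviral vector pLKO.1, and the shLuc group carried a hairpin against firefly luciferase in the same vector. All groups were infected with virus packaged in the embryonic kidney line HEK293T and selected with puromycin, so virus and selection are shared by the controls. The labels give no time after infection or culture of origin for the libraries. The p-values therefore reflect spread between libraries that may be technical repeats.

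Interferons bind receptors on the cell surface, and the kinases JAK1 and TYK2 then phosphorylate STAT proteins, among them STAT2. Joined by IRF9, these form a transcription factor that binds the interferon-stimulated response element in the promoters of its targets. The targets include sensors of foreign RNA, enzymes that destroy or mark it, proteins that block virus entry or exit, and the transcription factors of the pathway itself. Stellate cells are one of the non-immune liver cell types that can mount this response.

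Expression is given as the deposited score, which behaves as a rank mapped to one set of values common to the 6 columns (median 552, highest value 72566). Depth per library is therefore unknown, and the scale hides any change common to every gene. Folds are ratios of these scores and not of RNA amounts. Changes are differences of log2(score + 1), called at an adjusted p under 0.05 by limma with Benjamini-Hochberg adjustment over all 12413 genes tested. METTL3 scored 148 and 132 with shMETTL3-2, 274 and 256 with shMETTL3-1, and 536 and 552 with shLuc, so against shLuc it fell 3.87-fold in shMETTL3-2 cells, at an adjusted p of 6.44e-06, and 2.05-fold in shMETTL3-1 cells, at 0.000107. All 11 markers of activated stellate cells that were looked up were measured. Their summed score was 99333 to 104447 with shMETTL3-2, 138638 to 139092 with shMETTL3-1 and 166197 to 173836 with shLuc, most of it from COL1A1, TAGLN and VIM. COL1A1 stood at the highest value of the scale, 72566, in every shMETTL3-1 and shLuc library, and at 44454 with shMETTL3-2. Gene by gene, 2 rose and 6 fell with shMETTL3-2, 1 rose and 6 fell with shMETTL3-1, and 7 were higher and 3 lower with shMETTL3-2 than with shMETTL3-1, with a median log2 difference of 0.52. Of all genes tested, 30.8% were higher and 28.8% lower with shMETTL3-2, 30.3% and 28.4% with shMETTL3-1, and 31.9% and 31.1% between the hairpins. ACTA2, the smooth muscle actin of activated stellate cells, fell 5.83-fold with shMETTL3-2 and 9.17-fold with shMETTL3-1. COL3A1 rose by a log2 of 1.36 with shMETTL3-2 and had a log2 difference of -0.04 with shMETTL3-1. COL6A3 rose with both, by 0.83 with shMETTL3-2 and by 2.74 with shMETTL3-1. Of 7 leukocyte markers 4 were measured (LYZ, CD68, PTPRC and CD14), with sums of 1696 to 1730 for shMETTL3-2, 1439 to 1738 for shMETTL3-1 and 1070 to 1133 for shLuc. CD68, a lysosomal protein of macrophages, was called higher with both hairpins and none of the other 3 was called with either. Without CD68 the sums were 643 to 647 for shMETTL3-2, 434 to 588 for shMETTL3-1 and 710 to 741 for shLuc, so that shLuc was highest. PTPRC, the pan-leukocyte marker, was listed at 0 in shMETTL3-1 replicate 2 and at 214 to 317 elsewhere. Of 6 hepatocyte markers 2 were measured, with sums of 218 to 237 for shMETTL3-2, 292 to 296 for shMETTL3-1 and 236 to 342 for shLuc. Of 4 endothelial markers 2 were measured, with sums of 53 to 55 for shMETTL3-2, 57 to 89 for shMETTL3-1 and 236 to 268 for shLuc. The part of these markers in the results below was not tested.

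Most of the interferon-stimulated genes were higher with shMETTL3-2 than with either other group, whereas with shMETTL3-1 they were spread around shLuc. With shMETTL3-2, 41 of the 45 tested genes were called (59.6% of all genes tested): 37 rose, where 30.8% of all genes did, and 4 fell, where 28.8% did. Their median log2 change was 1.03, against 0.01 over all genes tested, and 24 of them (53.3%) had a log2 change above 1, as did 6.35% of all genes. With shMETTL3-1, 23 of the 45 were called (58.7% of all genes): 14 rose, or 31.1% where 30.3% of all genes did, and 9 fell, or 20% where 28.4% did. Their median was 0.08, against 0.01 over all genes, so these shares were close to or below those of the table as a whole. Fewer of the 45 were called with shMETTL3-1 when a shLuc or shMETTL3-1 library was left out, with medians of 0.02 to 0.10. The shares of all genes called in those runs are not given here, so the counts cannot be set beside them.

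The comparisons with shLuc share its 2 libraries, so the hairpins were also set directly against each other. There 38 of the 45 genes were called (63% of all genes): 35 were higher with shMETTL3-2, where 31.9% of all genes were, and 3 were lower, where 31.1% were. The median difference was 1.00, against -0.01 over all genes. Both libraries lay above both shLuc libraries for 40 genes with shMETTL3-2 (40.4% of all genes) and below them for 4 (38.1%). With shMETTL3-1 they lay above for 21 (41.4% of all genes) and below for 16 (38% of all genes). Both shMETTL3-2 libraries lay above both shMETTL3-1 libraries for 40 genes (40.9% of all genes) and below them for 4 (41.3%).

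The median over the list also differed between libraries of the same group. The median score of the 45 genes was 667 and 548 in the shMETTL3-2 libraries, 313 and 342 in the shMETTL3-1 libraries, and 397 and 367 in the shLuc libraries, while the median of all genes tested was 572 in every library. The shMETTL3-2 values lay above the others, and the values of the other 2 groups lay close together. The 2 shMETTL3-2 libraries also differed from each other: 41 of the 45 genes scored higher in replicate 1 than in replicate 2, by a median of 0.26 on the log2 scale, whereas 45.5% of all genes tested did so, with a median of -0.01. In the other groups the median difference between replicates over the 45 genes was 0.02 in shMETTL3-1 cells and 0.03 in shLuc cells. Without shMETTL3-2 replicate 1 the median change with shMETTL3-2 was 0.85, and without replicate 2 it was 1.20. The filter on the mean lets in IFIT2, OAS2 and SAMD9L, whose mean was under 50 in at least 1 group. Among the other 42 genes, 34 were higher and 4 lower with shMETTL3-2, and 12 were higher and 9 lower with shMETTL3-1. That count was chosen after seeing the data. Of all genes tested, 30.8% were higher and 28.8% lower with shMETTL3-2, and 30.3% and 28.4% with shMETTL3-1. The shMETTL3-1 counts did not exceed these shares.

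**Figure D1:**
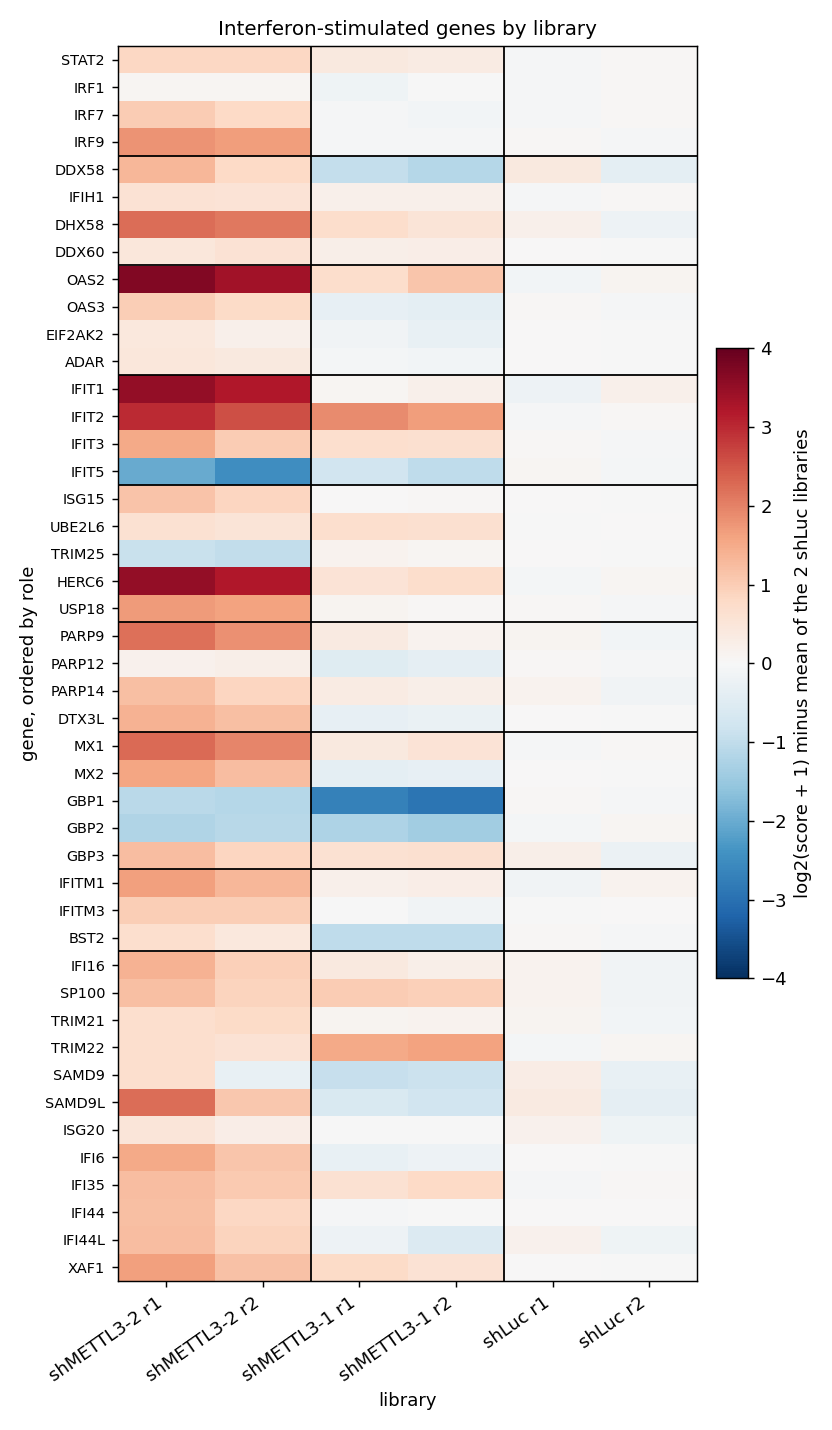
Heat map of the 45 tested interferon-stimulated genes (rows, ordered by role, with lines between roles) in the 6 libraries (columns, r1 and r2 for the replicates). Colour is log2(score + 1) minus the mean of the 2 shLuc libraries. The shMETTL3-2 columns are red in most rows, IFIT5, TRIM25, GBP1 and GBP2 are blue there, and the shMETTL3-1 columns hold both colours.

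**Figure D2:**
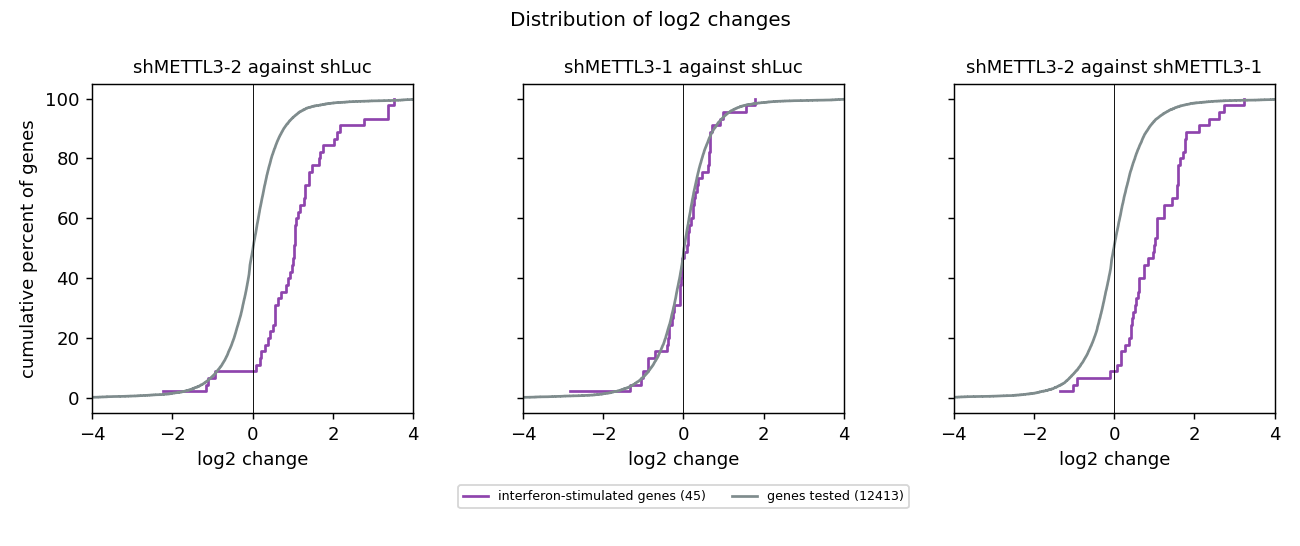
Cumulative distribution of log2 changes for the 45 interferon-stimulated genes and for the 12413 genes tested, in 3 comparisons. The line of the interferon-stimulated genes lies to the right of that of all genes over most of its course in both comparisons with shMETTL3-2 (medians 1.03 and 1.00), and close to it for shMETTL3-1 against shLuc (median 0.08).

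Promoters are shown because the response element is bound by the transcription factor of this pathway. The element was not used to choose the genes, but the list is of known interferon-stimulated genes. A high share of matches is therefore a trait of the list and not a result of these libraries. RefSeq promoter windows of build GRCh38.p14, from 250 bases before to 50 after a gene's start, were matched for 36 of the 45 genes. IRF7, DDX58, DHX58, OAS2, IFIT2, USP18, MX2, GBP2 and TRIM22 were not matched. The core of the response element was searched as GAAANNGAAA on both strands, so TTTCNNTTTC counts too. It occurred in 24 of the 36 genes (66.7%), against 4.38% of the 27305 genes of the promoter table. The gamma-activated site, the element of promoters that respond to interferon-gamma, searched as TTCNNNGAA, occurred in 9 of the 36 genes (25%), against 9.38% of all genes. The stretches below show matches of the response element in genes that rose with shMETTL3-2 (ISG15, DTX3L, BST2, OAS3, IFIT1 and GBP3) and in genes that fell (IFIT5 and GBP1). They read 5′ to 3′ on the strand of the gene, and capitals mark the matches.
ISG15: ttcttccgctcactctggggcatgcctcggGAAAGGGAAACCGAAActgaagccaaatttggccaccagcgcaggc
DTX3L: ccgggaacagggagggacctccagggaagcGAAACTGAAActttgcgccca
BST2: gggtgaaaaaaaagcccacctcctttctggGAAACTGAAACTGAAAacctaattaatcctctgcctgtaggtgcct
OAS3: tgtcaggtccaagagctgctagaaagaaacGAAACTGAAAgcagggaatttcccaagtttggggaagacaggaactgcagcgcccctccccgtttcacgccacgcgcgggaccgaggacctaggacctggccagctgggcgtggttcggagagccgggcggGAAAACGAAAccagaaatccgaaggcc
IFIT1: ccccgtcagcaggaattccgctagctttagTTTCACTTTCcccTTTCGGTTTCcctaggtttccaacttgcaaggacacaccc
IFIT5: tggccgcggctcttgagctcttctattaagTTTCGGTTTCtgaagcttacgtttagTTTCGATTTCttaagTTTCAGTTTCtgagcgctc
GBP1: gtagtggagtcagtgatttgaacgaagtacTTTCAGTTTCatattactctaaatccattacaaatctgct
GBP3: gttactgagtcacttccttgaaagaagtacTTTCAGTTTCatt

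In GRCh38.p14 these stretches lie at chr1:1013354-1013429 on the plus strand (ISG15), chr3:122564302-122564352 plus (DTX3L), chr19:17405715-17405790 minus (BST2), chr12:112938301-112938488 plus (OAS3), chr10:89392477-89392559 plus (IFIT1), chr10:89414493-89414582 plus (IFIT5), chr1:89065296-89065365 minus (GBP1) and chr1:89022852-89022894 minus (GBP3). In ISG15 and BST2 the 2 matches overlap each other. PARP9 and DTX3L are divergent neighbours, and the match in the DTX3L stretch, chr3:122564332-122564341, is also the match in the PARP9 window. With shMETTL3-2, 19 of the 24 genes with a match and 10 of the 12 without one were called higher, where 30.8% of all genes were. With shMETTL3-1, 4 rose and 6 fell of the 24 with a match, and 6 rose and 0 fell of the 12 without one, where 30.3% of all genes rose and 28.4% fell. The difference between genes with and without a match was not tested. IFIT5 has 3 matches and GBP1 has 1, and both fell. A match is a description of letters and not a measurement of binding.

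Among the signalling and transcription factors, IRF9, STAT2 and IRF7 rose with shMETTL3-2 and STAT2 rose with shMETTL3-1. IRF9, the DNA-binding partner of STAT2, scored 1698 and 1561 with shMETTL3-2, 473 and 470 with shMETTL3-1, and 504 and 465 with shLuc. The shMETTL3-2 libraries stood well above the other 4 libraries, which overlapped, and IRF9 was 3.36-fold higher with shMETTL3-2 (log2 1.75, SE 0.07, adjusted p = 3.23e-06). Its log2 change with shMETTL3-1 was -0.04 (95% interval -0.21 to 0.13, not adjusted for the number of genes, as for all intervals here).

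STAT2 scored 1635 and 1619 with shMETTL3-2, 1201 and 1164 with shMETTL3-1, and 892 and 946 with shLuc. The 3 groups did not overlap, with log2 changes of 0.82 with shMETTL3-2 and 0.36 with shMETTL3-1 (SE 0.06 each, adjusted p = 2.33e-05 and 0.00122). IRF7, which amplifies interferon transcription, scored 960 and 822 with shMETTL3-2, 457 and 431 with shMETTL3-1, and 456 and 484 with shLuc. Only its shMETTL3-2 libraries stood apart, and it rose by a log2 of 0.92 with that hairpin (SE 0.09, adjusted p = 0.000136). IRF1, an activator induced above all by interferon-gamma, scored 441 and 435 with shMETTL3-2, 369 and 413 with shMETTL3-1, and 397 and 431 with shLuc, and its log2 changes of 0.08 (-0.13 to 0.29) with shMETTL3-2 and -0.08 (-0.29 to 0.12) with shMETTL3-1 did not pass.

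The 4 RNA sensors all rose with shMETTL3-2, where 30.8% of all genes did. With shMETTL3-1, 2 of the 4 rose and 1 fell, where 30.3% of all genes rose and 28.4% fell. DHX58, also called LGP2, which tunes the other helicases, scored 484 and 444 with shMETTL3-2, 165 and 144 with shMETTL3-1, and 116 and 88 with shLuc, a log2 change of 2.19 (SE 0.15, adjusted p = 2.66e-05) with shMETTL3-2 and of 0.60 (SE 0.15, adjusted p = 0.0123) with shMETTL3-1. IFIH1, the sensor MDA5 of long double-stranded RNA, rose by 0.56 with shMETTL3-2 and had a log2 difference of 0.19 (0.01 to 0.38, adjusted p = 0.0644) with shMETTL3-1. DDX60, an antiviral helicase, rose by 0.51 with shMETTL3-2 and 0.25 with shMETTL3-1.

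DDX58, the sensor RIG-I, was called in opposite directions. It scored 270 and 184 with shMETTL3-2, 54 and 47 with shMETTL3-1, and 140 and 80 with shLuc, so the groups did not overlap, but both the shMETTL3-2 and the shLuc libraries were spread widely. Its log2 change was 1.07 with shMETTL3-2 (SE 0.30, adjusted p = 0.0193) and -1.06 with shMETTL3-1 (SE 0.30, adjusted p = 0.0206). Between the hairpins the log2 difference was 2.12 (adjusted p = 0.000844). The rise was not called without shLuc replicate 2 (0.67) or shMETTL3-2 replicate 1 (0.79), nor the fall without shLuc replicate 1 (-0.66), shMETTL3-1 replicate 1 (-1.15) or shMETTL3-1 replicate 2 (-0.96). With shMETTL3-1 the call of DHX58 was lost without shLuc replicate 2 (0.41) or shMETTL3-1 replicate 1 (0.51), and that of DDX60 without any 1 of the 4 libraries compared (0.22 to 0.28). The difference between hairpins for DDX60 (0.26) was not called without shMETTL3-1 replicate 1 (0.23), shMETTL3-1 replicate 2 (0.28) or shMETTL3-2 replicate 2 (0.20).

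Enzymes that act on double-stranded RNA also rose with shMETTL3-2, all 4 of those tested, where 30.8% of all genes did. With shMETTL3-1, 1 of the 4 rose and 1 fell, near the shares of all genes (30.3% and 28.4%). OAS2, which makes oligoadenylates when it meets double-stranded RNA, had the highest log2 change of the 45 genes with shMETTL3-2. It scored 532 and 421 with shMETTL3-2, 66 and 88 with shMETTL3-1, and 37 and 44 with shLuc. The groups did not overlap, and OAS2 was 11.5-fold higher with shMETTL3-2 (log2 3.52, SE 0.20, adjusted p = 9.64e-06) and 1.87-fold higher with shMETTL3-1 (log2 0.90, SE 0.20, adjusted p = 0.006). Its shLuc scores lay far under the column median of 552. The same holds for IFIT1, HERC6 and IFIT2 below, so these folds start from low scores.

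OAS3, the family member with the largest protein, scored 2032 and 1758 with shMETTL3-2, 816 and 788 with shMETTL3-1, and 1056 and 1010 with shLuc. It rose by a log2 of 0.87 with shMETTL3-2 (adjusted p = 8.24e-05) and fell by 0.36 with shMETTL3-1 (adjusted p = 0.0057). OAS1, below the limit for testing, was listed at 142 and 124 with shMETTL3-2, 0 and 3 with shMETTL3-1, and 10 and 6 with shLuc, so only its shMETTL3-2 values were above 10. ADAR, which edits adenosine to inosine in double-stranded RNA, rose by 0.43 with shMETTL3-2 and had a log2 difference of -0.10 (-0.21 to 0.02) with shMETTL3-1. EIF2AK2, the kinase PKR that halts translation, rose by 0.31 with shMETTL3-2, a call lost without shLuc replicate 1 (0.33), shLuc replicate 2 (0.30) or shMETTL3-2 replicate 1 (0.19). Its log2 change of -0.23 with shMETTL3-1 (adjusted p = 0.066) passed when either shMETTL3-2 library was left out of the shared spread (adjusted p = 0.0264 and 0.0262).

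The IFIT family, RNA-binding proteins encoded side by side on chromosome 10, split. IFIT1, which binds capped RNA that lacks ribose methylation, scored 840 and 670 with shMETTL3-2, 76 and 82 with shMETTL3-1, and 63 and 82 with shLuc. The shMETTL3-1 and shLuc libraries overlapped, and IFIT1 was 10.3-fold higher with shMETTL3-2 (log2 3.37, SE 0.17, adjusted p = 6.62e-06) and had a log2 difference of 0.13 (-0.27 to 0.53) with shMETTL3-1. The difference between the hairpins, 3.23, was the largest of the 45 genes (adjusted p = 6.23e-06).

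IFIT2, a partner of IFIT1 and IFIT3, scored 286 and 213 with shMETTL3-2, 131 and 114 with shMETTL3-1, and 34 and 36 with shLuc. Its rises of 2.78 with shMETTL3-2 and 1.78 with shMETTL3-1 on the log2 scale (SE 0.18, adjusted p = 1.73e-05 and 0.000144) make it the gene that rose most with shMETTL3-1. IFIT3, which stabilises IFIT1, scored 475 and 337 with shMETTL3-2, 262 and 260 with shMETTL3-1, and 169 and 161 with shLuc, with log2 changes of 1.27 with shMETTL3-2 and 0.66 with shMETTL3-1. The second of these calls was lost without shLuc replicate 2 (0.62), shMETTL3-1 replicate 1 (0.65) or shMETTL3-1 replicate 2 (0.66). The difference between hairpins of 0.61 was not called without shMETTL3-1 replicate 1 (0.62) or replicate 2 (0.61), and was 0.37 without shMETTL3-2 replicate 1.

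IFIT5, which binds RNA with a triphosphate end, went the other way. It scored 92 and 66 with shMETTL3-2, 218 and 184 with shMETTL3-1, and 392 and 352 with shLuc, with no overlap between groups. It was 4.72-fold lower with shMETTL3-2 (log2 -2.24, SE 0.18, adjusted p = 4.49e-05) and 1.85-fold lower with shMETTL3-1 (log2 -0.89, SE 0.18, adjusted p = 0.00404), and lower with shMETTL3-2 than with shMETTL3-1 (log2 -1.35, adjusted p = 0.000455).

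Genes of ISG15 conjugation, in which the ubiquitin-like protein ISG15 is attached to other proteins, rose with shMETTL3-2 except for TRIM25. ISG15 itself scored 1761 and 1435 with shMETTL3-2, 805 and 818 with shMETTL3-1, and 800 and 796 with shLuc. It was 1.99-fold higher with shMETTL3-2 (log2 0.99, SE 0.09, adjusted p = 0.000109), and its change with shMETTL3-1 was 0.02 (-0.20 to 0.25). HERC6, a ligase that attaches ISG15 in mice, scored 599 and 476 with shMETTL3-2, 75 and 84 with shMETTL3-1, and 48 and 54 with shLuc. It was 10.3-fold higher with shMETTL3-2 (log2 3.37, adjusted p = 4.55e-06) and 1.55-fold higher with shMETTL3-1 (log2 0.63, adjusted p = 0.0106). The shMETTL3-1 call was lost without shLuc replicate 1 (0.55) or shMETTL3-1 replicate 2 (0.55). HERC5, the main ISG15 ligase in human cells and a neighbour of HERC6, lay below the limit for testing and was listed at 88 and 74 with shMETTL3-2, 20 and 18 with shMETTL3-1, and 21 and 18 with shLuc.

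USP18, which removes ISG15 and holds back signalling at the receptor, rose 3.17-fold with shMETTL3-2 (log2 1.67, adjusted p = 1.9e-05) and had a log2 difference of 0.08 (-0.18 to 0.34) with shMETTL3-1. UBE2L6, the enzyme that carries ISG15 to the ligase, rose with both hairpins, by 0.56 with shMETTL3-2 and 0.66 with shMETTL3-1, and their difference of -0.10 (-0.24 to 0.05) did not pass. TRIM25, a ubiquitin ligase that acts on RIG-I, scored 1114 and 1051 with shMETTL3-2, 2261 and 2180 with shMETTL3-1, and 2086 and 2038 with shLuc. It was 1.90-fold lower with shMETTL3-2 (log2 -0.93, SE 0.05, adjusted p = 1.18e-05), and its change with shMETTL3-1 was 0.11 (-0.02 to 0.24).

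**Figure D3:**
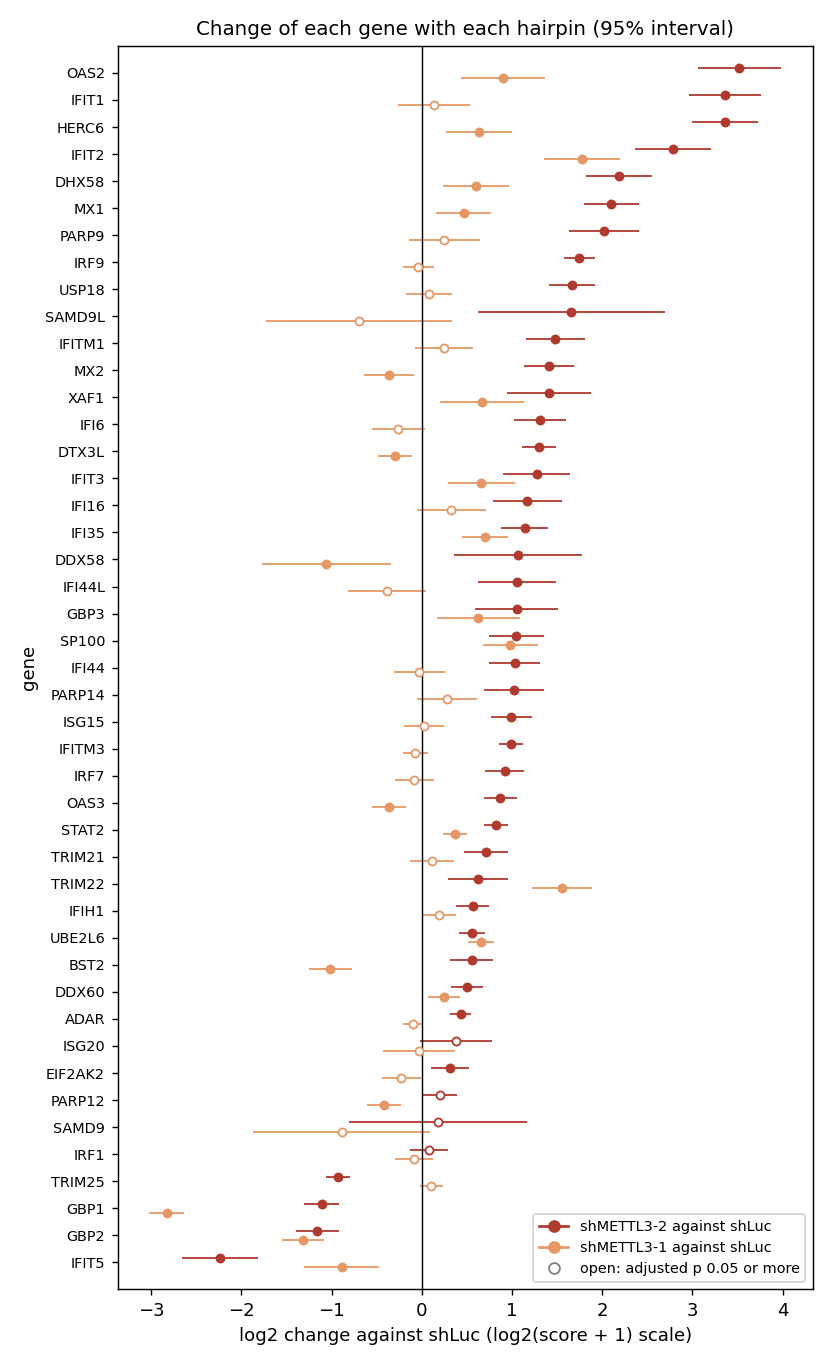
Log2 change of each of the 45 genes with shMETTL3-2 and with shMETTL3-1, both against shLuc, with 95% intervals that are not adjusted for the number of genes. Filled points passed an adjusted p of 0.05, and genes run by their change with shMETTL3-2 from OAS2 (3.52) at the top to IFIT5 (-2.24) at the bottom.

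The ADP-ribosyltransferases of the list and their partner DTX3L rose with shMETTL3-2, except PARP12. PARP9 and DTX3L form one complex, and their genes stand head to head around the promoter shown above. PARP9 scored 463 and 350 with shMETTL3-2, 126 and 110 with shMETTL3-1, and 106 and 92 with shLuc. DTX3L scored 1151 and 1013 with shMETTL3-2, 350 and 363 with shMETTL3-1, and 441 and 434 with shLuc, lowest with shMETTL3-1. With shMETTL3-2 PARP9 rose by a log2 of 2.02 (adjusted p = 5.28e-05) and DTX3L by 1.30 (adjusted p = 1.54e-05). With shMETTL3-1, PARP9 had a log2 difference of 0.25 (-0.14 to 0.64) and DTX3L fell by 0.29 (adjusted p = 0.0168), a call lost without any 1 of the 4 libraries compared (-0.27 to -0.32). PARP14, a mono-ADP-ribosyltransferase, rose by 1.02 with shMETTL3-2 and had a log2 difference of 0.28 (-0.05 to 0.61) with shMETTL3-1. PARP12, a related enzyme, had a log2 difference of 0.20 (0.01 to 0.40, adjusted p = 0.0649) with shMETTL3-2 and fell by 0.42 with shMETTL3-1 (adjusted p = 0.00362).

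Both MX GTPases rose with shMETTL3-2, whereas GBP1 and GBP2 fell with both hairpins. MX1, which traps viral nucleocapsids, scored 676 and 548 with shMETTL3-2, 184 and 206 with shMETTL3-1, and 136 and 146 with shLuc. It was 4.30-fold higher with shMETTL3-2 (log2 2.10, adjusted p = 1.36e-05) and 1.38-fold higher with shMETTL3-1 (log2 0.46, adjusted p = 0.0168), the second call being lost without shLuc replicate 1 (0.41) or shMETTL3-1 replicate 2 (0.38). MX2, known for restriction of HIV, scored 824 and 654 with shMETTL3-2, 210 and 218 with shMETTL3-1, and 279 and 272 with shLuc. It rose by a log2 of 1.41 with shMETTL3-2 (adjusted p = 5.64e-05) and fell by 0.36 with shMETTL3-1 (adjusted p = 0.0313), a call lost without any 1 of the 4 libraries compared (-0.34 to -0.39).

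Guanylate-binding proteins, large GTPases induced most by interferon-gamma, lie together on chromosome 1. GBP1 scored 1706 and 1635 with shMETTL3-2, 546 and 470 with shMETTL3-1, and 3738 and 3462 with shLuc. It fell 2.15-fold with shMETTL3-2 (log2 -1.11, SE 0.08, adjusted p = 3.37e-05) and 7.09-fold with shMETTL3-1 (log2 -2.83, SE 0.08, adjusted p = 1.16e-06), the lowest log2 change of the 45 genes in that comparison. GBP2 scored 238 and 254 with shMETTL3-2, 232 and 208 with shMETTL3-1, and 524 and 577 with shLuc, with log2 changes of -1.16 with shMETTL3-2 and -1.32 with shMETTL3-1 (adjusted p = 6.67e-05 and 3.72e-05). The difference between hairpins (0.16, -0.07 to 0.40) did not pass. GBP3 rose by 1.05 with shMETTL3-2 (adjusted p = 0.00386) and by 0.62 with shMETTL3-1 (adjusted p = 0.0298), the second call being lost without shLuc replicate 2 (0.39), shMETTL3-1 replicate 1 (0.63) or shMETTL3-1 replicate 2 (0.61). Its difference between hairpins (0.43, -0.03 to 0.89, adjusted p = 0.0917) passed without shLuc replicate 1 or 2 (0.43) or shMETTL3-2 replicate 2 (0.62). How the counting treated reads shared by these related genes, or by the IFITM genes below, is not given in the sources used here, so the split within each family is uncertain.

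Proteins that act at membranes rose with shMETTL3-2. IFITM1, which blocks virus entry, rose 2.79-fold (log2 1.48, adjusted p = 9.43e-05) and IFITM3, its endosomal relative, 1.98-fold (log2 0.99, adjusted p = 1.07e-05), and their changes with shMETTL3-1 were 0.25 (-0.07 to 0.57) and -0.07 (-0.20 to 0.06). BST2, the tetherin that holds budding virus at the cell surface, scored 802 and 669 with shMETTL3-2, 248 and 244 with shMETTL3-1, and 516 and 481 with shLuc. The groups did not overlap, and BST2 rose by a log2 of 0.56 with shMETTL3-2 (adjusted p = 0.00253) and fell by 1.02 with shMETTL3-1 (adjusted p = 0.000138), a difference between hairpins of 1.57 (adjusted p = 1.45e-05).

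Of the 12 remaining genes, 10 rose with shMETTL3-2, where 30.8% of all genes did. With shMETTL3-1, 4 of the 12 rose (33.3%), close to the 30.3% of all genes. IFI6, a membrane protein with antiviral activity, rose by a log2 of 1.31 with shMETTL3-2, and IFI44 and its neighbour IFI44L rose by 1.03 and 1.06. None of these 3 was called with shMETTL3-1 (-0.26, -0.03 and -0.39), although IFI6 passed there without shMETTL3-2 replicate 1 or 2 (adjusted p = 0.0178 and 0.0169). IFI16, a sensor of DNA, rose by 1.17 with shMETTL3-2 and had a log2 difference of 0.33 (adjusted p = 0.121) with shMETTL3-1, which likewise passed without shMETTL3-2 replicate 1 or 2 (adjusted p = 0.0376 and 0.0373). TRIM21, a cytosolic antibody receptor, rose by 0.71 with shMETTL3-2 and had a log2 difference of 0.11 with shMETTL3-1.

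SP100, a component of PML nuclear bodies, scored 1648 and 1334 with shMETTL3-2, 1445 and 1390 with shMETTL3-1, and 790 and 650 with shLuc. Both hairpin groups lay above shLuc and overlapped each other, with log2 changes of 1.05 with shMETTL3-2 and 0.98 with shMETTL3-1 (adjusted p = 0.000473 and 0.000652) and a difference of 0.07 (-0.24 to 0.37). TRIM22, an antiviral ubiquitin ligase, scored 88 and 84 with shMETTL3-2, 160 and 170 with shMETTL3-1, and 53 and 58 with shLuc. It rose by 0.62 with shMETTL3-2 and by 1.56 with shMETTL3-1 (adjusted p = 0.00673 and 8.43e-05) and was lower with shMETTL3-2 than with shMETTL3-1 (log2 -0.93, adjusted p = 0.000897).

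IFI35 rose by 1.14 with shMETTL3-2 and 0.70 with shMETTL3-1. XAF1, a promoter of apoptosis, rose by 1.41 with shMETTL3-2 and 0.67 with shMETTL3-1. The shMETTL3-1 call of XAF1 was lost without any 1 of the 4 libraries compared (0.57 to 0.78). The difference between hairpins was lost for XAF1 (0.74) without shMETTL3-1 replicate 2 (0.63) or shMETTL3-2 replicate 1 (0.50), and for IFI35 (0.44) without shMETTL3-1 replicate 1 (0.36) or shMETTL3-2 replicate 1 (0.33).

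SAMD9L, which restricts poxviruses together with its neighbour SAMD9, scored 371 and 164 with shMETTL3-2, 50 and 45 with shMETTL3-1, and 100 and 60 with shLuc. Its rise of 1.66 with shMETTL3-2 (SE 0.42, adjusted p = 0.0159) was not called without shLuc replicate 2 (1.29) and was 1.07 without shMETTL3-2 replicate 1. SAMD9 scored 667 and 339 with shMETTL3-2, 220 and 233 with shMETTL3-1, and 521 and 339 with shLuc, and its log2 differences of 0.18 (-0.81 to 1.16) with shMETTL3-2 and -0.89 (-1.87 to 0.09) with shMETTL3-1 did not pass. The shMETTL3-1 change of SAMD9 passed without shMETTL3-2 replicate 1 or 2 (adjusted p = 0.012 and 0.0148), and its difference between hairpins (1.07, adjusted p = 0.0599) passed without shLuc replicate 1 or 2 or without shMETTL3-2 replicate 2 (1.55). ISG20, an RNA exonuclease, had a log2 difference of 0.38 (-0.02 to 0.78) with shMETTL3-2, which passed without shLuc replicate 1 (0.56), and by -0.03 with shMETTL3-1. Its difference between hairpins (0.41, adjusted p = 0.0701) passed without shLuc replicate 1 or 2 (adjusted p = 0.0486 and 0.0457).

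For the lists of other pathway genes that follow, the shares of all genes called were 30.8% higher and 28.8% lower with shMETTL3-2, and 30.3% higher and 28.4% lower with shMETTL3-1. Of 9 receptors and kinases, 6 rose and 1 fell with shMETTL3-2 (median log2 0.37), and 5 rose and 1 fell with shMETTL3-1 (median 0.29). IFNGR1, the ligand-binding chain of the interferon-gamma receptor, scored 739 and 812 with shMETTL3-2, 324 and 291 with shMETTL3-1, and 332 and 308 with shLuc. Its shMETTL3-2 libraries stood above the other 4, and it rose by a log2 of 1.27 with shMETTL3-2 (adjusted p = 3.1e-05), the log2 difference with shMETTL3-1 being -0.06 (adjusted p = 0.622). IL10RB, a chain shared by the receptors of IL-10 and type III interferon, rose by 1.25 with shMETTL3-2 and 0.38 with shMETTL3-1. Of the type I receptor, IFNAR1, added here outside the rule for naming genes, had a log2 difference of -0.05 with shMETTL3-2 and fell by 0.54 with shMETTL3-1 (adjusted p = 0.000258), while IFNAR2 rose by 0.91 with shMETTL3-2 (adjusted p = 0.000287) and 0.30 with shMETTL3-1 (adjusted p = 0.043). The last call was lost without shLuc replicate 1 (0.27), shLuc replicate 2 (0.33) or shMETTL3-1 replicate 2 (0.20).

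Of the interferons fixed for the analysis, only IFNE and IFNG were measured. IFNE scored 345 and 346 with shMETTL3-2, 404 and 395 with shMETTL3-1, and 294 and 320 with shLuc, and rose with shMETTL3-1 (log2 0.38, adjusted p = 0.00592), the log2 difference with shMETTL3-2 being 0.17 (adjusted p = 0.112) and the difference between hairpins -0.21 (adjusted p = 0.0595). IFNG was listed at 68 to 80 in all 6 libraries. IFNB1 and the other interferons were not analysed here.

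Among sensing adaptors, TMEM173 was called in opposite directions with the 2 hairpins. TMEM173, the adaptor STING of the DNA-sensing pathway, scored 1160 and 1284 with shMETTL3-2, 144 and 165 with shMETTL3-1, and 446 and 498 with shLuc. It rose by a log2 of 1.37 with shMETTL3-2 (adjusted p = 3.52e-05) and fell by 1.61 with shMETTL3-1 (adjusted p = 1.81e-05). Between the hairpins the log2 difference was 2.98 (adjusted p = 1.38e-06). MAVS, the adaptor of RIG-I and MDA5, fell with both, by 0.32 with shMETTL3-2 and 1.01 with shMETTL3-1 (adjusted p = 0.00367 and 1.51e-05). RNF135, a ubiquitin ligase of RIG-I, rose by 0.76 with shMETTL3-2 and 0.78 with shMETTL3-1. Of the 10 genes of this list, 5 rose and 1 fell with shMETTL3-2 (median log2 0.28), and 3 rose and 3 fell with shMETTL3-1 (median -0.04). The shMETTL3-1 counts were at the shares of all genes.

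**Figure D4:**
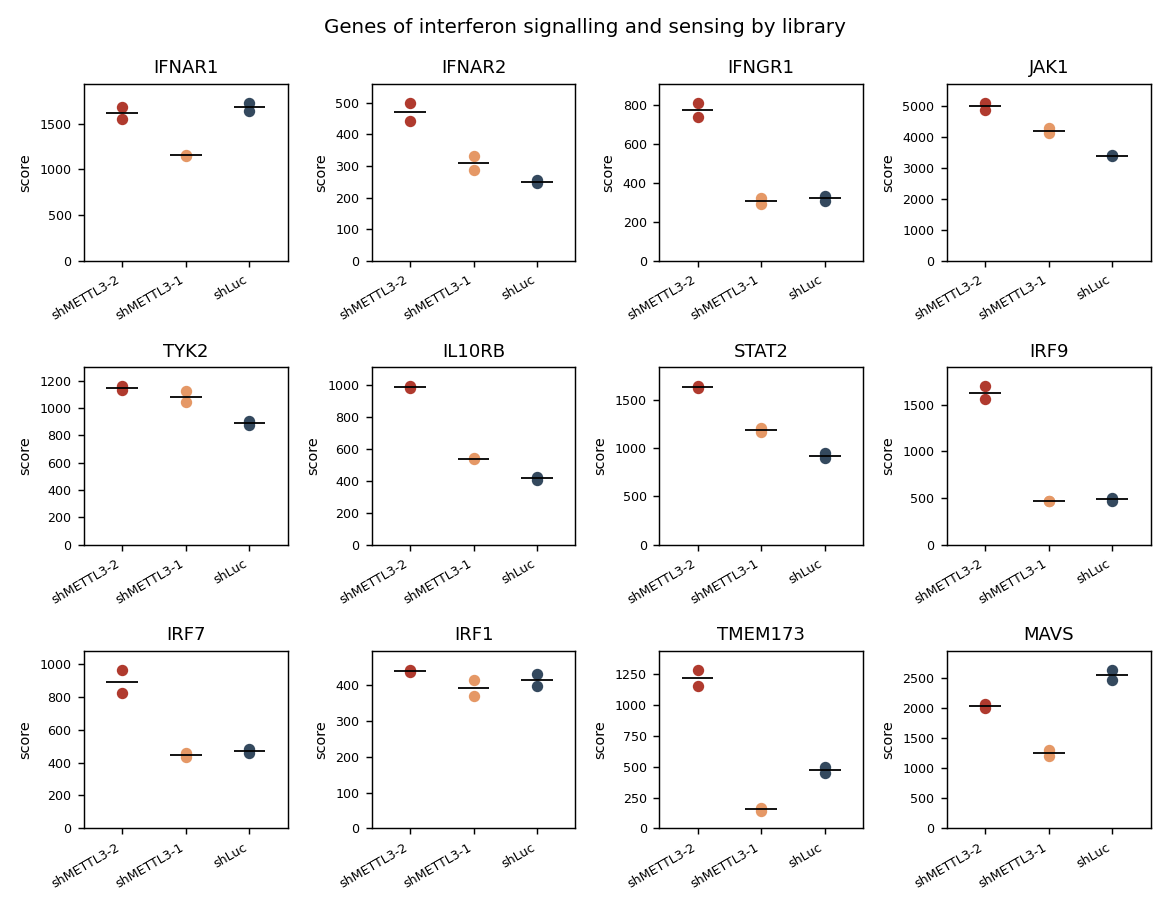
Scores of 12 genes of interferon signalling and sensing in the 6 libraries, with shMETTL3-2, shMETTL3-1 and shLuc from left to right. Points are libraries, black lines are group means and each vertical axis starts at 0. Among the genes that stand highest with shMETTL3-2 are IRF9, IRF7, IFNGR1, IL10RB and TMEM173, and TMEM173 is among those lowest with shMETTL3-1.

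Among brakes on signalling, PTPN1, a phosphatase of JAK2 and TYK2, scored 950 and 1018 with shMETTL3-2, 4152 in both shMETTL3-1 libraries, and 2866 and 2974 with shLuc. It fell by a log2 of 1.57 with shMETTL3-2 and rose by 0.51 with shMETTL3-1 (adjusted p = 1.66e-06 and 0.000188). PTPN2, a related phosphatase, had a log2 difference of -0.10 with shMETTL3-2 and fell by 0.78 with shMETTL3-1 (adjusted p = 0.000942). NLRX1, a mitochondrial regulator of MAVS, rose by 0.58 with shMETTL3-2 and 1.09 with shMETTL3-1 (adjusted p = 0.00687 and 0.000331), and the call of a difference between hairpins of -0.51 was lost without shMETTL3-1 replicate 1 (-0.38). The list of 10 had 4 higher and 2 lower with shMETTL3-2 (median -0.01), and 3 higher and 4 lower with shMETTL3-1 (median 0.12), near the shares of all genes (30.8% higher and 28.8% lower with shMETTL3-2, 30.3% and 28.4% with shMETTL3-1).

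Of 10 tested nucleases and related restriction factors, 5 were higher and 1 lower with shMETTL3-2 (median 0.24), and 5 were higher and 2 lower with shMETTL3-1 (median 0.21), where 30.8% and 30.3% of all genes were higher and 28.8% and 28.4% lower with shMETTL3-2 and shMETTL3-1. DICER1, which cuts double-stranded RNA into microRNAs, rose by 0.88 with shMETTL3-2 and 1.49 with shMETTL3-1. SKIV2L, a helicase that feeds RNA to the exosome, rose by 0.95 with shMETTL3-2 and 0.82 with shMETTL3-1. RNASEH2C, a subunit of the nuclease that removes RNA from DNA hybrids, fell by 0.91 with shMETTL3-2 and 0.27 with shMETTL3-1 (adjusted p = 2.85e-05 and 0.009), the second call being lost without shLuc replicate 2 (-0.25) or shMETTL3-1 replicate 2 (-0.20).

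Of a second list of interferon-induced genes, none among the 51, 24 were tested. Of these 24, 7 rose and 8 fell with shMETTL3-2 (median log2 0.02), 7 rose and 9 fell with shMETTL3-1 (median -0.08), and 14 were higher and 6 lower with shMETTL3-2 than with shMETTL3-1 (median 0.23). Against shLuc these counts were near the shares of all genes, 30.8% higher and 28.8% lower with shMETTL3-2 and 30.3% and 28.4% with shMETTL3-1. Between the hairpins 31.9% of all genes were higher and 31.1% lower. EPSTI1 rose by 1.87 with shMETTL3-2 (adjusted p = 0.00018) and had a log2 difference of -0.08 with shMETTL3-1. CD274, the checkpoint ligand PD-L1, scored 356 and 530 with shMETTL3-2, 602 and 658 with shMETTL3-1, and 2198 and 2212 with shLuc, with log2 changes of -2.34 for shMETTL3-2 and -1.81 for shMETTL3-1 (adjusted p = 0.000103 and 0.000309). CXCL11, a chemokine induced by interferon-gamma, was listed at 297 and 296 with shMETTL3-2, at 0 in both shMETTL3-1 libraries, and at 212 and 0 with shLuc.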

How the data were processed

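Total RNA libraries were mapped to hg19, per the labels. The submitters' processing notes name DESeq2, and the authors' use of it is not described. Nor do the sources used here give the aligner, counter, annotation or strandedness. Each deposited value is a whole number per gene and library. Column totals run from 16535130 to 16536605 and 87.3% of sorted ranks are identical in all 6 columns, so the deposited values were treated as a score and not as a count.

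Tested genes had a mean score of 50 or more. After adding a pseudocount of 1 and taking log2, limma 3.58.1 in R 4.3.3 was fitted (1 mean per group, mean-variance trend, robust moderation, all 6 libraries sharing 1 spread with 3 residual degrees of freedom). The fit was tested on simulated data. Members, gene lists, tests and motifs were chosen with earlier results of these data known. By rule, values in every library are given for signalling members and for the 4 highest and 4 lowest called changes per comparison. They are also given for members called in opposite directions with the 2 hairpins. Those of DHX58, IFIT3, ISG15, PARP9, MX1 and SAMD9, among others, were added outside this rule. From each pathway list up to 3 called genes were named by size. Some genes of the pathway lists are not reported here and were left out of the counts.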

Additional observations from a re-analysis of the deposited data

How the results depend on the processing

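In both comparisons of shMETTL3-2 the counts of interferon-stimulated genes called stayed within 1.5 times under every alternative run (pseudocounts of 10 and 50, other filters, 4 libraries, no trend or robust moderation, median centring, a threshold of 0.01, 42 genes past 50 in each group, libraries left out). Over libraries left out, 38 to 41 were called (34 to 37 higher, 4 lower) with medians of 0.85 to 1.20, and against shMETTL3-1 35 to 41 (32 to 38 higher, 3 lower) with medians of 0.80 to 1.11. With shMETTL3-1 against shLuc the counts were less stable: 14 to 27 called, 8 to 15 higher and 6 to 12 lower, with medians of 0.02 to 0.10, and at a threshold of 0.01 14 were called and 8 were higher. Without shLuc replicate 2, shMETTL3-1 replicate 1 or shMETTL3-1 replicate 2, 9, 9 and 8 were higher. The shares of all genes called in the alternative runs are not given here, and the cause was not tested. With the replicate number as a block, 29 of 45 were called with shMETTL3-1 (16 higher, 13 lower), 41 with shMETTL3-2 (37 higher, 4 lower) and 40 between hairpins. No label ties replicate numbers to a shared culture or batch, and same-numbered libraries' deviations correlated across genes at 0.02 to 0.05. With no filter on the mean, 39 of 47 were higher with shMETTL3-2. Of the 719 gene values per comparison over all alternatives, 708 kept direction and call with shMETTL3-2, 658 with shMETTL3-1 and 693 between hairpins, and 0 reversed. Median centring could change no count or value here, since the median of all genes tested was 572 in every library. The scores carry no depth, and 2 libraries per group limit precision.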

Other observations

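Neighbouring interferon-stimulated genes did not always move alike. By the hg19 positions of the table, members less than 300 kb apart formed 9 clusters. In the IFIT cluster (chromosome 10, 91061712 to 91180758) IFIT2, IFIT3 and IFIT1 rose with shMETTL3-2 and IFIT5 fell. In the GBP cluster (chromosome 1, 89472349 to 89616139) GBP3 rose with shMETTL3-2 while GBP1 and GBP2 fell. In the OAS cluster (chromosome 12, 113344582 to 113449528) OAS2 and OAS3 rose with shMETTL3-2, and OAS3 fell with shMETTL3-1 where OAS2 rose. In the cluster of MX2 and MX1 (chromosome 21, 42733870 to 42799793) both rose with shMETTL3-2, and MX2 fell with shMETTL3-1 where MX1 rose. These shMETTL3-1 calls of MX2 and MX1 were lost when single libraries were left out, as given above. In the cluster of PARP9, DTX3L and PARP14 (chromosome 3, 122246771 to 122449687) all members rose with shMETTL3-2. All members likewise rose in the cluster of IFI44L and IFI44 and in that of IFITM1, IFITM3 and IRF7. SAMD9L rose with shMETTL3-2 beside SAMD9, which was not called, and HERC6 rose beside HERC5, which was not tested.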
